A study of Mus musculus with 8 samples.

Results

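The 5 control libraries of a mouse tracheal RNA-sequencing series, 3 from sorted tracheal cells and 2 from whole tracheas, were described side by side for the tissue programs they contain. They were chosen by their labels as all libraries without Cre, 5 of 8 in the series. All 5 came from embryos at E13.5 that were homozygous for a floxed allele and carried no Cre. The sorted controls were Bmp4flox/flox, γSMAeGFP embryos, and the whole trachea controls were Wls flox/flox embryos. γSMAeGFP is a green fluorescent reporter of smooth muscle gamma-actin, the product of Actg2. The sort was negative: cells stained for EPCAM and cells with GFP were removed, so the sorted cells are whatever carried neither, and the labels call them chondroblasts, the cells that form cartilage. No cartilage marker was used to choose them. RNA of the sorted cells went through the SMART-Seq v4 Ultra Low Input kit, and RNA of the tracheas through the Ovation RNA-Seq System v2. Sort, kit, floxed gene and experiment therefore all changed together, their parts in any difference cannot be told apart, and no difference between the 2 kinds of sample was tested. The labels do not say whether the libraries of a kind came from separate embryos, so the spread between them may be technical.

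The trachea of the mouse embryo is an epithelial tube in a sleeve of mesenchyme. Mesenchyme on the ventral side condenses under the transcription factor SOX9 into cartilage rings, whose cells lay down type II, IX and XI collagens and aggrecan, and mesenchyme on the dorsal side becomes the trachealis, a band of smooth muscle. Fibroblasts and the perichondrium around each ring make type I and III collagens, and nerves with their glia, vessels, blood and macrophages are also present. In bulk libraries fewer cells of a type and less RNA per cell cannot be told apart.

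Depth was 55492747, 48876948 and 49714047 counts in sorted controls 1, 2 and 3 and 27237573 and 31399982 counts in whole trachea controls 1 and 2. Between 17398 and 18222 of 23478 genes had a count, and the 1000 most abundant genes held 45.5% to 49.1% of a library. Rank correlation across genes (Spearman, a description, since genes of a library share its depth and kit) was 0.975 to 0.982 between sorted controls, 0.989 between the tracheas and 0.931 to 0.935 between kinds. Sorted control 1 stood apart by nearly absent globin and Y-linked counts, described with the differences among the sorted controls. Levels are given as CPM, counts scaled to a common library total, which say how much of a library a gene took and compare 1 gene between libraries. Where 2 genes are compared, the per-length level is given, which is the count per kilobase of exon, scaled to the same sum in every library. A list's level is the sum of its members' CPM. A gene was called higher in 1 kind by a rule of size and not by a test: a mean over the kinds of at least 1 CPM, no overlap between the libraries of the kinds, and a ratio of the kinds' means of at least 4. Of 14357 genes with that level, 529 (3.68%) were called higher in the sorted controls and 1201 (8.37%) higher in the whole tracheas. Without the minimum ratio, every sorted control was above both tracheas for 6131 genes (42.7%) and below both for 4877 (34%). The median log2 ratio of sorted over whole trachea was 0.16 over these genes, and 0.06 with TMM scaling in place of library totals. Members named beyond the rule given with the processing were chosen after their values were seen.

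Fibroblast and perichondrial matrix was the largest tissue program in both kinds of sample. Its 31 genes summed to 18883, 21529.9 and 15640.1 CPM in sorted controls 1, 2 and 3 and to 22472 and 19213 CPM in the tracheas, and the kinds overlapped. Among lists of tissues and cell types, erythroid genes came next by mean in both kinds, but not in sorted control 1. In the sorted controls the transcription factors of tracheal mesenchyme, the cartilage regulators, cartilage matrix and smooth muscle followed, at means of 5178, 3074, 3021 and 2653 CPM. In the tracheas smooth muscle led these, at a mean of 5222 CPM, followed by the transcription factors at 3841, cartilage matrix at 1911, airway epithelium at 1426 and cartilage regulators at 1019.7. In the sorted controls airway epithelium had a mean of 116 CPM, and only the mesothelial, lung bud and thyroid lists were lower. The order of lists by sum moves with the number and length of their members, so it is the shift of 1 list between libraries that can be read.

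**Figure D1:**
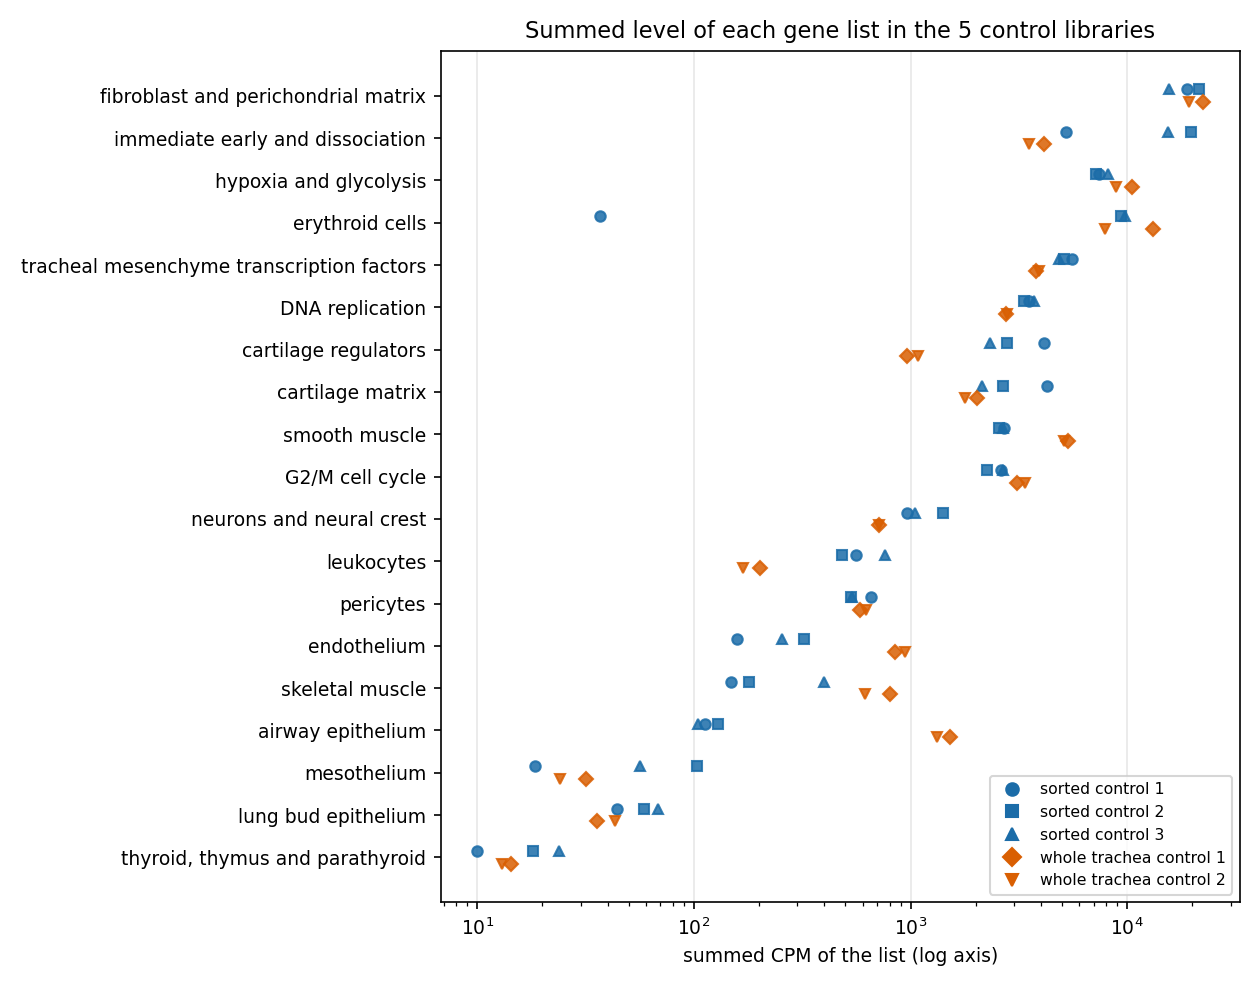
Summed CPM (log axis) of each fixed gene list in the 5 control libraries, 1 symbol per library, sorted controls in blue and whole trachea controls in orange. Cartilage regulators sit at 2319 to 4110 CPM in the sorted controls and 961 to 1078 in the tracheas, airway epithelium at 105 to 129 and 1330 to 1522, and sorted control 1 stands far below the others for erythroid genes.

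The cells the sort was set to remove were nearly absent from the sorted controls at the RNA level. Epcam (GRCm38 chromosome 17, 87635979 to 87651129), the surface protein stained for the sort, had 2.02, 0.307 and 1.35 CPM in sorted controls 1, 2 and 3 and 139 and 114 CPM in the tracheas, 104-fold less in the sorted cells. Actg2 (chromosome 6, 83512905 to 83536265), whose reporter drove the second gate, had 4.58, 4.71 and 6.82 CPM against 263 and 224, a ratio of 45.4. Myh11, the myosin heavy chain of smooth muscle, had 0.883, 2.01 and 3.14 CPM against 505 and 442, a ratio of 236. These genes separated the 2 kinds with no overlap, as the gates would by construction for Epcam and Actg2. Sox9 (chromosome 11, 112782224 to 112787760), the cartilage regulator that was not used in the sort, had 1796, 1011 and 710.0 CPM in the sorted controls and 189.8 and 177 CPM in the tracheas, 6.4-fold more.

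**Figure D2:**
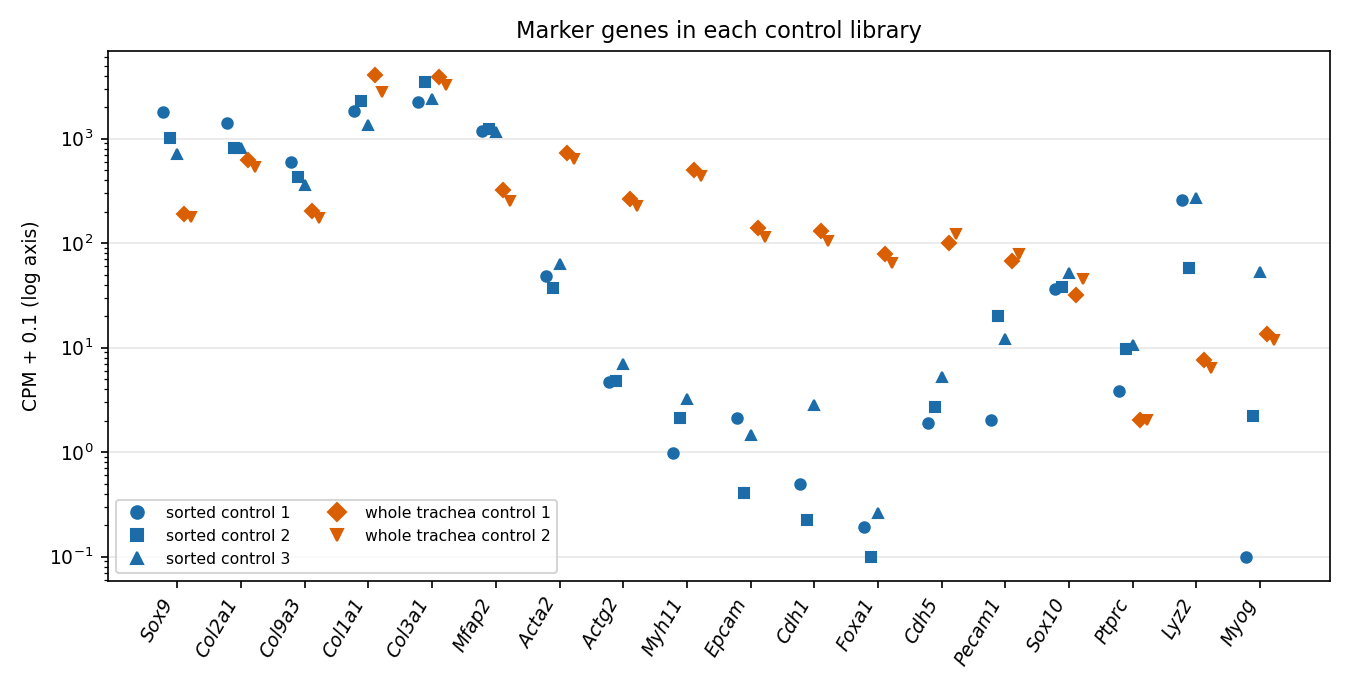
CPM plus 0.1 (log axis) of 18 marker genes in each control library, sorted controls in blue and whole trachea controls in orange. Acta2, Actg2, Myh11, Epcam, Cdh1, Foxa1, Cdh5 and Pecam1 are lower in every sorted control, Sox9 is higher in every sorted control, and the Sox10 values of the kinds lie together.

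By sum, cartilage regulators separated the kinds by more than cartilage matrix did, and every sorted control was above both tracheas for both lists. Per member the lists were close, with a median log2 ratio of 0.85 for regulators and 0.80 for matrix. The 13 regulators summed to 4110.2, 2791 and 2319 CPM in sorted controls 1, 2 and 3 and 961 and 1078 CPM in the tracheas, 3.01-fold more. The 24 matrix genes summed to 4246, 2677 and 2139.7 against 2032 and 1789.7 CPM, 1.58-fold more, and sorted control 3 was the nearest to the tracheas. The cells labelled chondroblasts thus had Sox9 and the type II and IX collagen genes at high levels, beside the fibroblast genes described next, and some defining cartilage matrix genes near 0.

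Among the regulators, 3 of 12 genes with enough counts were called higher in the sorted controls and none lower, beside 3.68% and 8.37% of all genes. The median log2 ratio of the members was 0.85, below the 1.59 of the sum, in which Sox9 and Wwp2 had the most counts. Sox9 ranked 25, 79 and 128 among all genes of sorted controls 1, 2 and 3, and 910 and 1046 in the tracheas. The regulators past the rule beside Sox9 were Gdf5, a joint and cartilage growth factor of the BMP family, with 207, 185 and 159 CPM against 34.1 and 31.5, and Sp7, a transcription factor of bone-forming and maturing cartilage cells, with 38.1, 29.1 and 20.5 CPM against 5.43 and 5.35. Both were above the tracheas in every sorted control. Wwp2, the ubiquitin ligase whose gene hosts a microRNA of cartilage, had 1417, 1043 and 974 CPM against 409 and 501. Sox5 and Sox6, the partners of SOX9 at cartilage genes, were 2.31- and 1.69-fold higher in the sorted controls, under the size of the rule. Not all regulators went this way. Pth1r, the receptor for parathyroid hormone-related protein, had 59.8, 33.8 and 28.3 CPM against 66 and 57, so the kinds overlapped, and Nog, a secreted BMP antagonist, had 8.18, 3.07 and 3.26 against 10.6 and 9.68 and was lower in each sorted control. Nkx3-2 stayed under 1 CPM in all 5 libraries.

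The collagen genes of cartilage were abundant in both kinds of sample. Col2a1 (chromosome 15, 97975602 to 98004695), the main collagen of cartilage, had 1408, 818 and 811 CPM in the sorted controls and 625 and 540.0 CPM in the tracheas, 1.74-fold more. Col9a3, a chain of type IX collagen, had 600.4, 433 and 361 against 203 and 176 CPM. For both genes all sorted controls were above both tracheas. Col9a2 had 702, 442 and 288 against 296 and 232 CPM, and there sorted control 3 fell within the tracheas. Per length, Sox9 was at 869 and Col2a1 at 335 in the sorted controls, against 153 and 217 in the tracheas. By this measure the regulator was above its best known target in the sorted cells and below it in the whole tissue. That order rests on exon lengths of 4135 and 9243 bases, and ratios between the kinds moved with length, as described below. By CPM, Sox9 was above Col2a1 in sorted controls 1 and 2 and below it in sorted control 3, at 710 against 811. Acan, which encodes aggrecan, had 21.1, 7.92 and 1.47 CPM against 13.7 and 12.8, and the 3 sorted controls spanned both tracheas. Matn1, a matrilin of tracheal cartilage, was at 0, 0 and 0.161 CPM against 0.11 and 0, and Ucma, a marker of upper growth zone chondrocytes, had a count in sorted control 1 alone at 0.036 CPM. Comp and Matn3 also stayed near or under 1 CPM.

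Of the 20 cartilage matrix genes with enough counts, 3 were called higher in the sorted controls and none in the tracheas, beside 3.68% and 8.37% of all genes. Every sorted control was above both tracheas for 10 of the 20, beside 42.7% of all genes, and below both for 2, beside 34%. Mia, a small secreted protein of cartilage, had 32, 16.4 and 7.42 CPM against 4.48 and 3.12. Cytl1, a cytokine-like protein of chondrocytes, had 31.4, 21.3 and 25 against 3.3 and 2.58, 8.8-fold more. Snorc, a membrane proteoglycan of cartilage, had 8.4, 1.49 and 0.704 against 0.294 and 0.51, and most of that came from sorted control 1. The 2 genes with every sorted control below both tracheas were Col27a1, a fibrillar collagen, with 106, 68.2 and 63.6 CPM against 163 and 182, and Chst11, a chondroitin sulfotransferase, 15.2, 16.8 and 12.9 against 38.1 and 36.2. Cartilage matrix summed to 22.5%, 12.4% and 13.7% of fibroblast matrix in sorted controls 1, 2 and 3, and to 9.04% and 9.32% in the tracheas. On this ratio within a library, sorted controls 2 and 3 stood closer to the tracheas than to sorted control 1.

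Fibroblast and perichondrial genes made up 1.56% to 2.15% of a sorted library and 1.92% to 2.25% of a trachea library. Per member the list had almost no net shift: the median log2 ratio was 0.06, the ratio of sums was -0.16, and per length the sign turned to 0.20. The genes of the main fibrillar collagens had lower means in the sorted controls. Col1a1 had 1834, 2312 and 1357 CPM against 4079 and 2821, with no overlap, and Col3a1 had 2233, 3469 and 2408 against 3915 and 3261, where sorted control 2 lay between the tracheas. Sparc, a collagen-binding glycoprotein, had 1293, 1537 and 1209.6 against 1299 and 1087 and overlapped. Mfap2 and Mfap4, which encode proteins of microfibrils, were higher in every sorted control. Mfap2 passed the rule with 1174, 1236 and 1158 CPM against 321 and 254, 4.14-fold more. It was the 1 gene of the 31 called higher in the sorted controls, near the 3.68% of all genes. None was called higher in the tracheas, beside 8.37% of all genes. Mfap4 had 1400.2, 1442 and 1280.5 against 501 and 445 and Fbln2, a fibulin, 787, 765 and 321 against 203 and 191. Pdgfra, the PDGF receptor of mesenchyme, had 397, 299 and 318 against 295 and 365 CPM, a ratio of 1.02.

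Mesenchymal transcription factors were present at high levels in the sorted controls, with members on both sides of the tracheas. The 34 genes summed to 5562, 5122 and 4848 CPM against 3776 and 3905, yet their median log2 ratio was -0.01, and 3 genes were called in each direction, which is near the 8.37% of all genes called toward the tracheas and above the 3.68% called toward the sorted controls. Osr1, a zinc finger factor of early mesenchyme, had 857, 812 and 663 CPM against 242 and 207. Tcf21, a factor of fibroblast progenitors, had 326, 286 and 297 against 90.1 and 85.5. Tbx3 had 594, 444 and 323 against 118 and 125. All sorted controls were above both tracheas for these 3 genes, at 3.46-, 3.45- and 3.74-fold. Tbx4 and Tbx5 are T-box factors needed for tracheal mesenchyme. Tbx4 had 186, 121 and 70.9 against 78.4 and 88.2 CPM, so sorted control 3 was below both tracheas. Tbx5 had 277, 249 and 235 against 139 and 152, with no overlap. Past the rule in the sorted controls were Msx1, Msx2 and Snai2, the last an epithelial to mesenchymal transition factor at 97.1, 101 and 129 CPM against 24.3 and 28.2.

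The 3 factors called lower in the sorted controls were Foxp4, Irx1 and Irx3. Foxp4, a forkhead factor also made by airway epithelium, had 48.3, 33.3 and 38.3 CPM against 329 and 327, 8.2-fold less. The Iroquois genes differed among the sorted controls. Irx1 had 0, 0.246 and 6.64 CPM against 13.9 and 10.2. Irx2 had 0.144, 0.552 and 18.2 against 14.3 and 16. Irx3 had 0, 0 and 0.0201 against 18 and 15.3. For Irx2, sorted control 3 stood with the tracheas while controls 1 and 2 were under 1 CPM. Foxf1, a target of Hedgehog in airway mesenchyme, had 71.6, 32.8 and 93.4 against 96.4 and 91.4 CPM, and sorted control 2 was the low one.

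Contractile smooth muscle genes were lower in the sorted controls. Of the 21 genes of the list, 9 were called higher in the tracheas and none in the sorted controls, beside a background of 8.37%, and 18 had every sorted control below both tracheas, beside 34% of all genes. The list summed to 2710.2, 2567 and 2680.5 CPM in the sorted controls and 5338 and 5105 CPM in the tracheas, a log2 ratio of -0.98. Flna, a filamin of all mesenchyme at 1706, 1375 and 1397 CPM against 1322 and 1515, held more than any other member, and without it the log2 ratio was -1.71.

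The ratios of single contractile genes ranged widely. Acta2 (chromosome 19, 34241090 to 34255590), smooth muscle alpha-actin, had 48.2, 37.1 and 62.9 CPM against 721 and 640.2, 13.8-fold less. It kept a higher level than Actg2 per length, 68.2 against 10.4 in the sorted controls. Cnn1, calponin, was 9.53-fold lower and Tagln, transgelin, 6.92-fold lower. Myocd, the coactivator that turns on the contractile program, had 6.09, 4.62 and 6.4 CPM against 32.1 and 37.9, 6.13-fold less. Myl9 and Tpm1, a myosin light chain and a tropomyosin that fibroblasts also make, were 1.77- and 1.62-fold lower, and Smtn differed by less than a factor of 1.5. Synpo2, a Z-disc and actin-bundling protein, had 3.03, 8.35 and 26.8 CPM against 62.3 and 55.3, with sorted control 3 nearest the tracheas.

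Airway epithelial genes were lower in the sorted controls. Of 29 genes with enough counts, 24 were called higher in the tracheas, beside 8.37% of all genes, and 28 had every sorted control below both tracheas, beside 34%. The 30 genes summed to 113, 129 and 105 CPM against 1522 and 1330.0, 12.3-fold less, and the median rank of a member was 14434, 14255 and 14094 in the sorted controls and 6125 and 7079 in the tracheas. Spint2, a protease inhibitor not limited to epithelium, had 60.8, 49.9 and 50.05 CPM against 109.5 and 91.3 and made up much of the sorted sum, and without it the log2 ratio moved from -3.62 to -4.42. Cdh1, E-cadherin, had 0.396, 0.123 and 2.72 CPM against 129.8 and 105. Foxa1, a forkhead factor of gut tube epithelium, had 0.0901, 0 and 0.161 against 77.8 and 65.1, 854-fold less. Wnt7b, the epithelial Wnt ligand, had 0, 0.491 and 0.161 against 139 and 126, 609.8-fold less. Shh and Krt5, the epithelial signal to mesenchyme and a basal cell keratin, had no count in any sorted control. The trachea levels were 19.7 and 19.8 CPM for Shh and 11.5 and 22.2 for Krt5. With a floor of 3 counts over the 3 sorted libraries, or 0.0195 CPM, these were at least 1016-fold and 864-fold higher in the tracheas.

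Ratios also ranged widely among epithelial genes. Nkx2-1, the homeobox factor of tracheal and lung epithelium, kept 9.68, 5.77 and 2.19 CPM against 65.3 and 57.9, 10.5-fold less where Foxa2 was 489.9-fold less. Cldn6, a claudin of embryonic epithelium and the list's highest gene per length in the tracheas, had 0.198, 1.1 and 0.322 CPM against 114 and 96. Esrp1, an epithelial splicing regulator, had 0, 0.123 and 0.201 against 49.97 and 52.8. The keratin genes Krt8, Krt18 and Krt19 were 17-, 3.79- and 4.52-fold lower, and Krt8 shared 31.9% of its sequence words with other genes (the measure is explained with the ribosomal genes). Lamp3, a lysosomal protein of type II alveolar cells placed in the lung bud list, had 31.6, 26.8 and 32.4 CPM in the sorted controls and 0.0367 and 0.0318 CPM in the tracheas, while Sftpc, the surfactant gene that defines those cells, was at 0.162, 0.532 and 0.241 against 0.514 and 0.223 and Sftpb and Sftpa1 had no count in the sorted controls. Napsa and Abca3, also of that list, had 2.72, 7.8 and 8.89 against 0.918 and 0.446 and 9.82, 23.8 and 27.1 against 34.2 and 42.6 CPM.

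**Figure D3:**
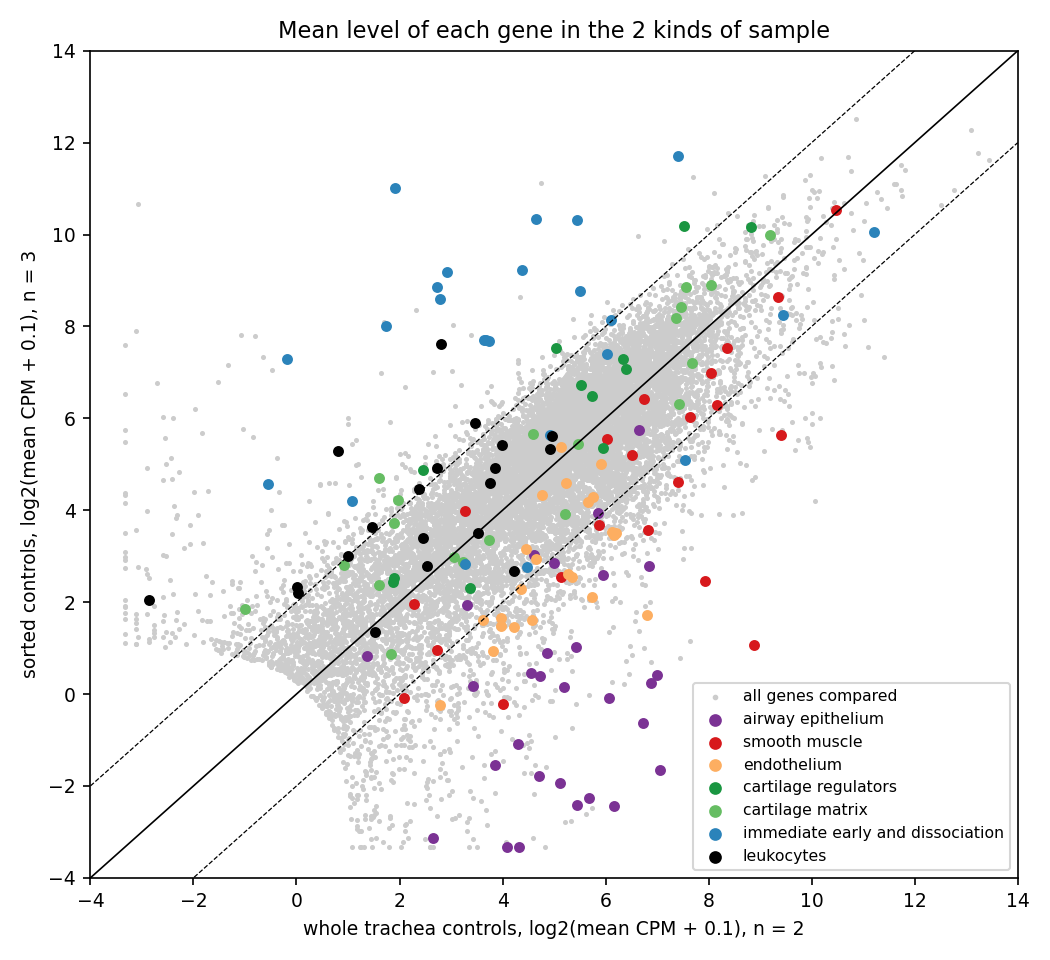
Mean level of each of 14357 genes in the 2 whole trachea controls (x) and the 3 sorted controls (y), both as log2 of mean CPM plus 0.1, with the members of 7 lists coloured, the diagonal of equal level and dashed lines at a ratio of 4. All 29 epithelial genes and 19 of 21 smooth muscle genes lie below the diagonal and 19 of 24 immediate early genes above it, while 10 of 12 cartilage regulators and 12 of 20 cartilage matrix genes lie above it.

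The summed endothelial and skeletal muscle lists were lower in every sorted control than in both tracheas, and the summed neural and leukocyte lists were higher. Endothelial genes summed to 158, 322 and 256 CPM against 844 and 946, with 15 of 23 called higher in the tracheas, beside 8.37% of all genes. Cdh5, the cadherin of endothelial junctions, had 1.78, 2.58 and 5.17 CPM against 100.4 and 123, 35.1-fold less. Pecam1 had 1.95, 20.1 and 11.9 against 68 and 78.9, and sorted control 1 was the lowest for both. Cldn5, the claudin of endothelial junctions, had 1.19, 9.12 and 6.86 against 43.9 and 36.8, and Erg, an endothelial transcription factor, 27.4, 17.2 and 13.8 against 54.3 and 52.9. Flt1, a VEGF receptor, overlapped, at 17.2, 54.3 and 51.9 against 30.4 and 39.4 CPM. Skeletal muscle genes, which mark the striated muscle next to the trachea, summed to 148, 179 and 399.9 against 801 and 615 CPM, and 3 of 17 were called higher in the tracheas, beside the same 8.37%. Myl4, an embryonic myosin light chain, had 13.2, 9.98 and 7.12 CPM against 138 and 107, and Mylpf, its fast muscle counterpart, 1.06, 1.49 and 6.88 against 22.5 and 16.4. Actc1, the heart and embryonic muscle actin, had 71.1, 82.4 and 137 against 397 and 297. Pericyte genes overlapped, at 655, 532 and 535 CPM against 582 and 619.9. Pdgfrb, a receptor of pericytes and fibroblasts, had 238, 260.2 and 271 CPM against 192 and 200.03. Notch3, the Notch receptor of mural cells, had 143, 86.4 and 102 against 205 and 227, and Mcam, a vascular adhesion protein, 34.4, 32.7 and 25.4 against 104 and 110.1.

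Neural genes summed to 959, 1404 and 1045 CPM in the sorted controls and 713 and 718 CPM in the tracheas. Sox10, of glia and neural crest, overlapped, at 35.9, 38 and 51.8 CPM against 31.7 and 45.7. Tubb3, the neuronal tubulin, had 103, 177 and 81.6 against 52.1 and 43.3, with the highest value in sorted control 2, which also led for Gap43, Stmn2 and Th. Isl1, a factor of motor, sensory and autonomic neurons, had 105, 130.0 and 183 against 35.7 and 34.6 CPM. By the rule, 3 of 26 neural genes were called higher in the tracheas and 1, Th, in the sorted controls, near the 8.37% and 3.68% of all genes. The median log2 ratio of the members was 0.55, on the same side as the sum. By mean, 17 members were higher in the sorted controls and 9 were lower, and the share of all genes by mean is not given here. Every sorted control was above both tracheas for 12 of the 26 and below both for 7. These shares are not far from the 42.7% and 34% of all genes. Foxd3, a factor of neural crest, was higher in the tracheas, at 0.973, 1.1 and 1.05 against 6.06 and 6.05 CPM. Mesothelial genes were at low levels, with Upk3b at 8.9, 48.6 and 26.9 CPM against 13.1 and 9.46 and Wt1 at 1.62, 5.69 and 3.28 against 10.5 and 6.66. Lrrn4 and Upk1b, the next mesothelial genes per length, had 6.99, 35.1 and 15.3 against 3.6 and 3.76 and 0.973, 13.1 and 10.2 against 4.11 and 4.01 CPM. Thyroid and thymus markers were at low levels, with Pax8 and Foxn1 under 1 CPM in all 5 libraries, Foxe1 without a count in any, and Pth and Gcm2 without one in all libraries of at least 1 kind. The highest of that list per length were Calca at 3.91, 5.73 and 2.64 against 5.47 and 2.96, Tshr at 3.03, 4.95 and 14.7 against 2.42 and 2.8 and Hhex at 1.5, 4.4 and 4.99 against 3.6 and 5.03 CPM.

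Leukocyte genes were higher in the sorted controls, with 8 of 20 past the rule, beside 3.68% of all genes, and none the other way. They summed to 559, 484 and 766 CPM against 202 and 169, 3.24-fold more. The pan-leukocyte gene Ptprc had 3.73, 9.64 and 10.5 CPM against 1.91 and 1.91. Csf1r, the receptor of macrophages, had 44.2, 38.3 and 37.2 against 31.4 and 28.9, and the complement gene C1qa overlapped, at 11.9, 9.37 and 12.5 against 12.7 and 9.94. Tyrobp, a signalling adaptor of myeloid cells, had 19.6, 30.2 and 41 against 7.2 and 5.83. C1qb, whose protein forms the complement complex with that of C1qa, had 38.1, 40.8 and 49.2 against 17.7 and 13.8. Lyz2, lysozyme of granulocytes and macrophages, had 261, 58.2 and 267 against 7.49 and 6.27, 28.4-fold more, and shared 31.7% of its sequence words with other genes. Mrc1, of tissue macrophages, was lower, at 7.05, 6.63 and 5.15 against 17.4 and 19.5 CPM. Of 6 genes of neutrophil granules and cytosol chosen after their values were seen (Ngp, S100a8, S100a9, Ltf, Camp and Lcn2), all were under 1 CPM in both tracheas. Ngp had 308, 49.5 and 321 CPM against 0.551 and 0.191, S100a8 273, 53.4 and 336 against 0.587 and 0.35, and Ltf, lactoferrin, 152, 26.4 and 154 against 0.404 and 0.0955. For these 6 genes sorted control 2 was at least 4-fold below both other sorted controls. Granule genes of the leukocyte list had another order. Mpo, myeloperoxidase, had 1.28, 43.5 and 72 against 2.02 and 1.27 CPM and Elane, neutrophil elastase, 0, 5.73 and 6.3 against 0.0734 and 0, so sorted control 1 was the low one.

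BMP, Wnt, Hedgehog and FGF signals pattern the tracheal mesenchyme, and BMP4 itself is made there. Bmp4 had 114, 92 and 117 CPM in the sorted controls and 49.9 and 50.3 CPM in the tracheas, 2.15-fold more. Bmp2 had 40.7, 46.9 and 18.9 against 12.1 and 9.36. The receptor genes Bmpr1a, Bmpr2 and Acvr1 were 2.88-, 2.3- and 3.02-fold lower in the sorted cells. The Id genes, early targets of BMP signalling, carried the list: Id3 had 1678, 1966 and 2101 CPM against 275 and 274, 6.99-fold more, Id2 was 4.16-fold and Id1 2.93-fold higher. Smad6, an inhibitor that BMP also induces, went the other way at 7.87, 6.96 and 7.78 against 42.3 and 33.9, 5.06-fold less. So the sum of 20 BMP genes was 2.47-fold higher while the median log2 ratio of the members was -0.21, with 2 of 19 called higher and 1 lower in the sorted controls, beside 3.68% and 8.37% of all genes. Immediate early genes differed between the same libraries by more than the Id genes did, and their part in the Id levels was not tested.

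Wnt genes summed to 2177, 1824 and 1457 CPM against 2130.0 and 2031, and 3 of 23 were called, all higher in the tracheas, a share not far from the 8.37% of all genes. These were the epithelial ligands Wnt7b and Wnt4 and the coreceptor gene Lrp5, at 3.8, 3.5 and 3.74 CPM against 112 and 107. The mesenchymal ligands Wnt5a and Wnt2 were higher in the sorted controls, Wnt5a at 516, 295 and 191 against 127 and 138 and Wnt2 at 15.4, 46.3 and 32.9 against 8.55 and 10.9. Wls, whose protein carries Wnt ligands to the cell surface, had 186, 126 and 156 against 151 and 149. Targets of beta-catenin lay on both sides. Axin2 had 11.7, 8.41 and 11.3 CPM against 35.7 and 45.6, Lef1 65.7, 56.1 and 47.3 against 21.2 and 19.5, and Notum, an extracellular Wnt deacylase, 106, 33.6 and 11.9 against 25.4 and 24.2. Notum and Nkd1 were highest in sorted control 1 among the sorted libraries. The Wnt genes with the highest per-length level in the tracheas were Sfrp2 and Sfrp1, secreted inhibitors, and Fzd2, a receptor. Sfrp2 had 278, 316 and 156 against 386 and 287 CPM. Sfrp1 had 64.5, 158 and 198 against 210.2 and 217, and Fzd2 had 129.5, 127 and 155 against 212 and 187.

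In the Hedgehog list, 1 of 12 genes was past the rule, near the 8.37% of all genes called higher in the tracheas. It was the ligand Shh, with no count in the sorted controls. Its receptor and target Ptch1 had 39.5, 37.4 and 54 CPM against 56.1 and 80.8 and its target Gli1 66.9, 49.2 and 50.2 against 95.9 and 149, 1.57- and 2.21-fold less. Boc, a coreceptor, had 517, 463 and 379 against 230.3 and 274, while the coreceptor genes Gas1 and Cdon were 2.88- and 3.04-fold lower. Smo, the signal transducer, had 303, 173 and 137 against 258 and 268 CPM. FGF genes summed to 1009.5, 668 and 552 CPM against 641 and 678. None of the 12 with enough counts was called, beside 3.68% and 8.37% of all genes. Fgf10, the mesenchymal ligand of airway growth, had 12, 7.75 and 7.18 CPM against 9.11 and 9.17. Dusp6, a phosphatase induced by FGF, had 42.9, 88.1 and 113 against 28.6 and 28.8, and Etv5, a transcription factor target, had 107, 68.7 and 79.8 against 31.5 and 35.4. The receptor genes Fgfr1, Fgfr2 and Fgfr3 were each highest in sorted control 1 among the sorted libraries. Retinoic acid genes summed to 2125, 1848 and 1854 against 1154 and 1112 CPM. Crabp1, a retinoic acid binding protein, had 485, 257 and 269 against 149 and 136 CPM. Crabp2, a related binding protein, had 96.7, 96.4 and 153 against 40.9 and 44.9. Rarb, a receptor and target, had 232, 237 and 193 against 105 and 99.9. Cyp26a1, a retinoic acid degrading enzyme, passed the rule at 21.9, 6.26 and 6.01 against 1.69 and 2.9. Of 14 retinoic acid genes, 1 was called higher in the sorted controls and 1 in the tracheas, beside 3.68% and 8.37% of all genes. Every sorted control was above both tracheas for 6 of the 14 and below both for 6, beside 42.7% and 34% of all genes.

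Immediate early genes, which cells switch on within minutes of a stimulus and which enzymatic dissociation is known to induce, were higher in the sorted controls. Of 24 with enough counts, 17 were called higher in the sorted controls and 1, Jund, lower, beside 3.68% and 8.37% of all genes, and the median log2 ratio of the members was 4.0 beside 0.16 for all genes, the largest median above 0 among the 31 lists. Fos had 362, 3418 and 2409 CPM against 4.85 and 2.52, 560.4-fold more, and ranked 378, 5 and 13 in the sorted controls. Ier2, a growth factor-induced gene, had 391, 1899 and 1517 against 45.9 and 40.9. Jun had 1487, 5175 and 3373 against 181 and 158 and Egr1 643, 2111 and 1157 against 23.9 and 26. The heat shock gene Hspa1a had 19.2, 226 and 1154 against 7.6 and 5.45, with the highest value in sorted control 3. Hspa8, a constitutive member, was lower in the sorted controls at 1107, 878 and 1205 against 2599 and 2146. In sorted control 1 the list summed to 5198 CPM, nearer to the tracheas at 4138 and 3513 than to the other sorted controls at 19656 and 15482. Hspa8 held most of the trachea sums, so this nearness does not hold for each gene. Every sorted control, control 1 included, was above both tracheas for 18 of the 24 genes and below both for 4. The shares of all genes were 42.7% and 34%. Dissociation and sorting were done for 1 kind of sample only, and their part in these levels cannot be told apart from that of the kit. Cyr61, an immediate early matricellular gene outside the list, had 347, 3001 and 3311 CPM against 27.7 and 26.1.

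The 3 sorted controls were not interchangeable. Of 10222 genes with a mean of at least 10 CPM in them, 32 (0.313%) lay at least 4-fold from both others in sorted control 1, 11 (0.108%) in sorted control 2 and 20 (0.196%) in sorted control 3. In sorted control 1, 30 of the 32 were lower. They included the embryonic globins, with Hbb-y at 3.46, 7539 and 7226 CPM in sorted controls 1, 2 and 3 and 11058 and 6410.2 in the tracheas, Hbb-bh1 at 0.252, 128 and 270.1 against 235 and 243, and Hba-x at 1.05, 1464 and 2105 against 1633 and 1031. The erythroid enzyme gene Alas2 had 24.2, 98.7 and 72.2 CPM. The globin genes Hbb-bt, Hbb-bs, Hbb-b1, Hbb-b2 and Hba-a2 had no count in any library, and their near-identical copies leave that uncertain. Y-linked genes were also near 0 in sorted control 1, with Ddx3y at 0.108, 41.2 and 34.1 CPM, Eif2s3y at 0, 14.5 and 16.9 and Uty at 0.162, 9.64 and 12.7, while Xist had 381, 222 and 244 CPM. The tracheas had Xist at 646 and 1473 and Ddx3y at 16.4 and 6.34 CPM. Both tracheas and sorted controls 2 and 3 thus had Xist together with Y-linked counts. The labels do not say whether a library held 1 embryo or several.

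Cartilage genes were at their highest in that same library. All 9 cartilage regulators and 13 of 14 cartilage matrix genes with a mean of at least 10 CPM were highest in sorted control 1, and none of them reached 4-fold from both others there. Of the 27 mesenchymal transcription factors at that level, 16 were highest in sorted control 1, against 9 of 29 fibroblast matrix genes and none of 22 immediate early genes. The share of all genes highest in that library is not given here, so only lists can be compared. The ratio of the highest to the lowest sorted control was 1.77 for the summed regulators, 1.98 for cartilage matrix, 1.06 for smooth muscle, 3.78 for immediate early genes and 264 for erythroid genes. Without sorted control 1, the log2 ratio to the tracheas was 1.33 for regulators and 0.33 for matrix, against 1.59 and 0.66 with it. Erythroid genes held 0.0037% of sorted control 1 and 0.931% and 0.976% of the other sorted libraries, and the part of blood, of the dissociation response or of embryo sex in the cartilage levels was not tested.

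Sorted control 3 stood apart by 10 genes that were higher in it and 10 that were lower. Foxf2, a forkhead factor of mesenchyme, had 3.21, 3.62 and 37.7 CPM in sorted controls 1, 2 and 3 against 8.96 and 8.82 in the tracheas. Myog, the myogenic regulator, had 0, 2.11 and 53 CPM against 13.3 and 11.7, and Msc, a bHLH factor of branchial muscle precursors, 0.36, 1.55 and 63.2 against 3.49 and 2.32. Frzb, a secreted Wnt antagonist, had 11.5, 16 and 78.9 CPM and Six2, a homeobox factor, 2.07, 3.62 and 28.4. In the same library Enpp2, the enzyme autotaxin, was low at 414, 206 and 42.3 CPM, and Acan was at its lowest. Of the skeletal muscle genes with a mean of at least 10 CPM, 5 of 7 were highest there. So were 17 of 22 DNA replication genes and 63 of 71 ribosomal protein genes, against 3 of 29 fibroblast matrix genes. Other lists leaned the same way, with 15 of 22 glycolysis and hypoxia genes and 15 of 23 G2/M genes highest there. The share of all genes highest in sorted control 3 is not given here, so a trait of these lists cannot be told from one of the library. In sorted control 2, 10 of the 11 genes that stood apart were lower, and the 6 neutrophil genes named above were among them, with Camp at 60.01, 7.55 and 75 and Lcn2 at 37.7, 8.55 and 50.5 CPM.

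**Figure D4:**
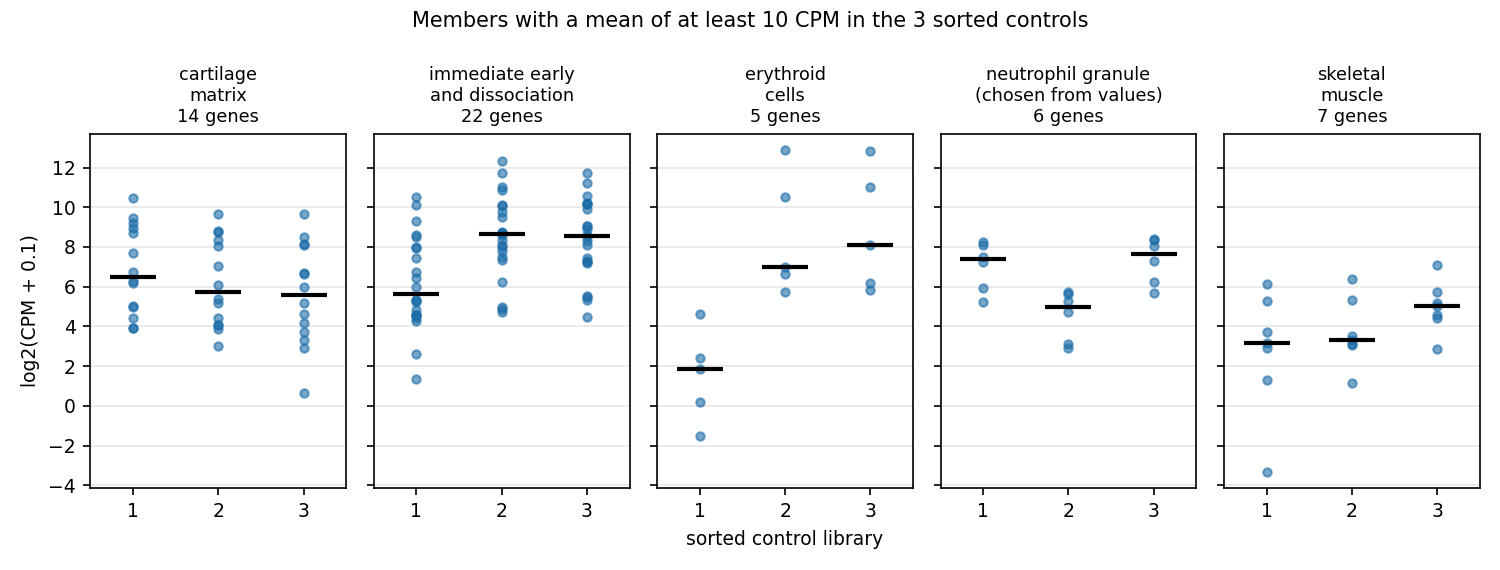
Members of 5 gene groups with a mean of at least 10 CPM in the sorted controls, as log2 of CPM plus 0.1 in sorted controls 1, 2 and 3, with a bar at the median. Sorted control 1 is highest for cartilage matrix and lowest for immediate early and erythroid genes, sorted control 2 is lowest for the 6 neutrophil genes shown (Ngp, S100a8, S100a9, Ltf, Camp and Lcn2), and sorted control 3 is highest for skeletal muscle genes.

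The most abundant genes differed between the kinds. Leaving out ribosomal protein and mitochondrially encoded genes, 5 of the 15 most abundant genes by mean CPM were shared, among them Eef1a1, H19, Hbb-y and Col3a1. H19, an imprinted noncoding RNA of fetal growth, had 4724, 3221 and 2510.3 CPM in the sorted controls and 10298 and 8964 in the tracheas, and its neighbour Igf2, the fetal growth factor, had 2645, 1975 and 1399.6 against 7206 and 6757. Both were highest in sorted control 1 among the sorted libraries and lower there than in either trachea. Ubb, a polyubiquitin gene and first by mean in the sorted controls, had 5941, 5574 and 6109 against 1974 and 1732, and Eef1a1, an elongation factor and first in the tracheas, 2935, 2993 and 3556 against 11257 and 10984. Ftl1, the ferritin light chain, had 3230.2, 3373 and 3285 against 1859 and 1463. Col1a2, the second chain of type I collagen, had 1889.8, 2346 and 1759.5 against 3864 and 2947 CPM and was among the first 15 in the tracheas. The other genes of the first 15 were Jun, Gpc3, Actb, H3f3b, Tsc22d1, Malat1, Hspa5 and Cyr61 in the sorted controls, and Igfbp5, Col1a1, Lars2, Hsp90ab1, Eef2, Tpt1, Nedd4 and Actg1 in the tracheas. Gpc3, a glypican that restrains growth, had 3444, 3222 and 3108 against 1267 and 1064. Malat1, a nuclear noncoding RNA, ranked 11, 11 and 22 in the sorted controls and 851 and 747 in the tracheas.

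Some of the largest gaps fell on genes with copies elsewhere in the genome, and where copies are near-identical, counts depend on how reads that match several places were handled. Ribosomal protein genes summed to 16373, 15254 and 17436 CPM in the sorted controls and 63669 and 57906 CPM in the tracheas, with 43 of 73 called higher in the tracheas and 3 in the sorted controls, beside 8.37% and 3.68% of all genes. Gapdh had 178, 162 and 224 CPM against 2359 and 2014 and Tpt1 147, 164 and 171 against 2798 and 2608. In the other direction, Prdx6b had 201, 188 and 189 CPM in the sorted controls and no count in the tracheas, Aldoart2 had 109, 106 and 111 against 0.0734 and 0.0318, and the microRNA locus Mir682 1619.7, 1524 and 1694 against 0.0367 and 0. Prdx6b and Aldoart2 are intronless copies of other genes. Of the 10 largest ratios toward the sorted controls, 6 genes had no count in either trachea: Prdx6b, 4933417G07Rik, Gm16381, Gm6524, 1700028B04Rik and BC048507. The other 4 were Mir682, 4930503E24Rik, Aldoart2 and Pin1rt1. Of the 10 largest toward the tracheas, Foxa1, Foxa2, Wnt7b, Esrp1 and Mal2 are epithelial genes, and the other 5 were Olfr613, Olfr856-ps1, A130077B15Rik, Gm10845 and Gm17821, with Olfr613 at 0, 0 and 0 CPM against 24.6 and 31.6. The share of a gene's longest transcript made of 32-base words that also occur in another gene was used as a measure, chosen after these values were seen. It was 30.5% for Gapdh, 42.9% for Tpt1 and 100% for Mir682, but 8.85% for Aldoart2, 6.49% for Pin1rt1 and 3.05% for Prdx6b, so by this measure the intronless copies share little. The median log2 ratio was 0.22 for 6816 genes with no shared word and -0.36 for 220 genes with more than 75% shared, and the share called higher in the tracheas was 7.92% and 22.7%. The share called higher in the sorted controls also rose, from 3.57% to 7.27%, and was 10.9% for genes with 50% to 75% shared. The median shared share was 0% for the cartilage, fibroblast, endothelial, leukocyte and immediate early lists and 35.6% for ribosomal genes. It was 56.8% for histone genes, whose sum was higher in the sorted controls. Whether the 2 tables treated such reads differently was not tested.

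**Figure D5:**
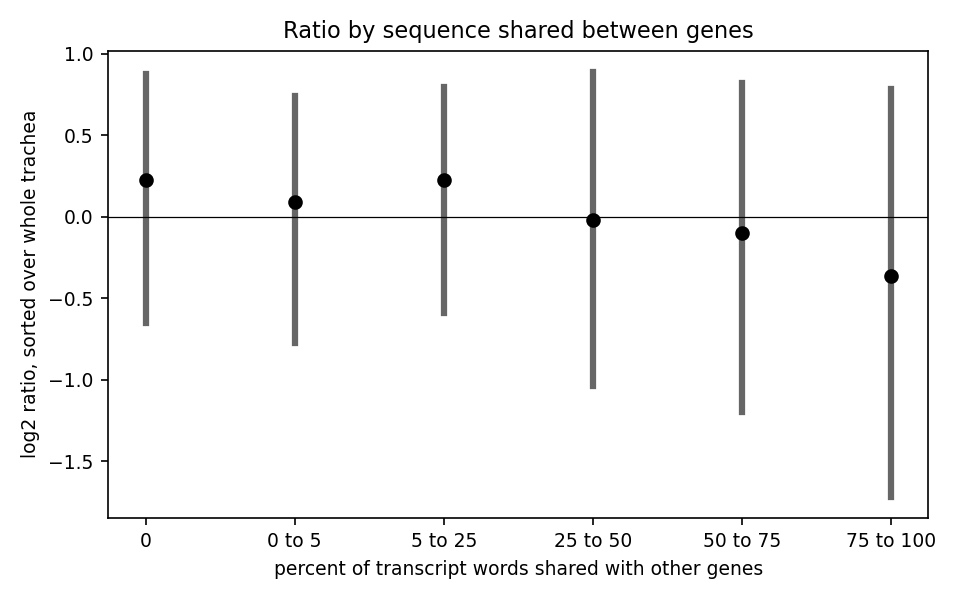
Log2 ratio of sorted over whole trachea controls for genes grouped by the percent of 32-base words of their longest transcript that also occur in other genes, with the median as a point and the middle 50% of genes as a bar. The medians lie at 0.22 for genes that share nothing and -0.36 for genes that share more than 75%, and the bars of all groups overlap widely.

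Transcript length moved with the ratio as well. In 4 groups of equal size from the shortest to the longest genes by exon length, the median log2 ratio was 0.68, 0.32, 0.05 and -0.28, and the share called higher in the sorted controls was 9.08%, 2.98%, 1.52% and 0.985%. The share called higher in the tracheas was 8.52%, 8.86%, 7.85% and 8.27%. The median exon length was 6080.5 bases for cartilage regulators, 5121 for cartilage matrix, 3948 for smooth muscle and 2767 for airway epithelium. The part of length in the ratios of these lists was not tested. Histone genes, which are short, summed to 1829.6, 1464 and 1814 CPM against 391 and 323, with 22 of 59 called higher in the sorted controls, beside 3.68% of all genes. The part of length in those counts was not tested.

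Proliferation genes did not separate the kinds by the rule. DNA replication genes summed to 3511, 3321 and 3727 CPM against 2746 and 2774 and G2/M genes to 2625, 2250.4 and 2659.6 against 3099 and 3390.3, with none called in either list. Mcm6, Mcm5 and Mcm4, subunits of the replication helicase, were each higher in all sorted controls, with Mcm6 at 404, 429 and 470.0 against 272 and 281 CPM. Mcm5 had 299.7, 265 and 318 against 177 and 175 and Mcm4 had 251, 243 and 293 against 177 and 190.4. Mki67, a marker of cycling cells, had 208, 154 and 189 CPM against 530.0 and 646. Top2a, a topoisomerase of dividing cells, had 213, 189 and 217 against 427 and 477. Mki67 and Top2a were lower in every sorted control, while Cdc20, a mitotic activator, was higher in every one, at 149, 127 and 149 against 112 and 101. The replication clamp gene Pcna had 118, 117 and 140.3 against 225 and 216. Glycolysis and hypoxia genes summed to 7382, 7156 and 8129 CPM against 10470.4 and 8828. The median log2 ratio of the members was -0.06. Gapdh alone had a mean of 188 CPM in the sorted controls and 2187 in the tracheas. Of the 25 genes, 2 were called, Gapdh and Pgk1, both higher in the tracheas, near the 8.37% of all genes. Gapdh shared 30.5% and Pgk1 68.3% of its sequence words with other genes. Ldha, lactate dehydrogenase, had 1966, 1723 and 2124 against 1195 and 921 CPM. Pkm, pyruvate kinase, had 1423, 1485 and 1676 against 1487 and 1194, and Slc2a1, the glucose transporter, had 154, 162 and 179 against 132 and 131.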

How the data were processed

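The authors deposited raw counts by gene symbol in 2 tables, 1 per kind of sample, each with 23478 symbols. Per the submitters' processing notes, Bowtie2, Cufflinks, DESeq and the build mm10 were named, and Trim Galore for the sorted cells, with no versions or roles. No source used here gives the counting program, its annotation or its strand setting, so overlapping and antisense genes cannot be told apart. CPM used library totals. Exon lengths, positions and transcript sequence came from GENCODE annotation of GRCm38 (mm10), matched for 23052 symbols. Of 469 listed symbols, 468 were in the tables, 5 under an older symbol. The members and lists were chosen with earlier results of these data known. No test was made, and the rule of size was tested on simulated counts. Libraries of a kind differed by more than sampling noise (chi-square over degrees of freedom, 23.4 to 184). Reads had no molecular identifiers, so floors cover counting error only. Genes were named by rule: defining markers; the 3 members of each list with the highest per-length level; the 15 most abundant genes per kind; the 10 largest ratios per direction at 20 CPM or more; the 5 widest spreads among sorted controls at 50 CPM or more; and members at 0; some of these are not reported here. Python 3.11.15, pandas 2.3.3 and edgeR 4.0.16 (TMM factors) were used.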

Additional observations from a re-analysis of the deposited data

How the results depend on the processing

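The number of genes called higher in the sorted controls went from 529 to 2858 at a fold of at least 2, 944 with no minimum CPM, 247 with a minimum of 10 CPM and 253 by rank within each library. The number called higher in the whole tracheas went from 1201 to 2988, 1876, 730 and 727 under the same changes. TMM scaling gave 443 and 1328, and genes with under 5% shared sequence, a choice made after seeing the data, gave 377 and 936. Leaving out 1 library at a time gave 521 to 600 and 1174 to 1300. The log2 ratio of summed CPM for smooth muscle was -0.98 with library totals, -1.09 with TMM, -1.05 with totals that leave out ribosomal, histone and erythroid genes, -1.58 per length, -1.61 as the median of the members and -1.71 without Flna. For airway epithelium the last 3 were -3.90, -4.32 and -4.42 (without Spint2), against -3.62. Fibroblast matrix went from -0.16 to 0.20 per length and 0.0585 as the median of the members. Cartilage regulators went from 1.59 to 0.85 as the median of the members. Leaving out 1 library at a time gave 1.33 to 1.76 for cartilage regulators, 0.33 to 0.86 for cartilage matrix, -0.27 to -0.04 for fibroblast matrix, -1.01 to -0.94 for smooth muscle and -3.72 to -3.52 for airway epithelium. The sign turned as the median of the members for mesenchymal transcription factors (-0.00888), BMP genes (-0.21), small nucleolar RNAs (-0.00713) and sex-linked genes (0.29, and 0.71 without Xist). Smaller sums also turned: FGF genes from 0.17 to -0.13 as the median and -0.11 without sorted control 1, and thyroid, thymus and parathyroid genes from 0.34 to -0.08 as the median, -0.03 per length and -0.18 without the most abundant member. The causes of these shifts were not tested. Of 310 list values over 10 changes, 298 kept their sign, and 24 of 31 lists kept it in all 10. No paired analysis was possible because the comparison rests on no test and the kinds come from different experiments. The tracheas had fewer counts (27237573 and 31399982) than the sorted controls, so genes of low level rest on fewer counts there.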

Other observations

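Mgp and Cspg4 were chosen after their values were seen. Mgp, matrix Gla protein, which restrains calcification of cartilage, had 2443, 1834 and 1097 CPM in sorted controls 1, 2 and 3 and 753 and 644 CPM in the tracheas; it was highest in sorted control 1. Cspg4, a proteoglycan in the pericyte list, had 225, 118 and 93.6 CPM against 49.8 and 48.2. Hsd3b6, a steroid dehydrogenase, had 1.89, 83.3 and 82.3 CPM against 51.2 and 46.4 and was low in sorted control 1 alone. Igfbp5, a secreted binder of insulin-like growth factors, ranked 46, 37 and 28 in the sorted controls and 5 and 5 in the tracheas.

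Hox genes, which mark position along the body, summed to 421, 261 and 266 CPM in the sorted controls and 463 and 479 CPM in the tracheas, and 3 of 15 were called higher in the tracheas, beside 8.37% of all genes. Olfactory and vomeronasal receptor genes summed to 11.5, 14.8 and 10.9 CPM against 61.9 and 80.9, and 7 of 1456 reached the level needed for the rule.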
